A study of Mus musculus with 12 samples.

Results

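The collagen genes of the mouse were followed through reprogramming by ATAC-seq. In this assay a transposase, Tn5, cuts DNA where chromatin is open and leaves adapters for sequencing there. Members were the protein-coding genes whose symbol is Col, a number, the letter a and a number. There were 44 of them among 21883 protein-coding genes, namely 11 fibrillar, 6 basement membrane (type IV) and 27 other collagens, and each had at least 1 counted region in its span or within 10 kb of either end. In all, 432 of the 115000 counted regions were linked to a collagen gene, 363 of them inside a gene span and the rest in the 10 kb flanks. A gene's value is the sum of reads over its linked regions, so it describes accessibility near the gene and not its expression.

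Libraries came from 4 groups of cells of a mixed C57BL/6 x 129 background, with 3 libraries in each. Mouse embryonic fibroblasts (MEF), the starting cells, were not sorted. A protocol labelled 3c enhanced reprogramming gave the Stage 1 cells (day 6) and the Stage 2 cells (day 6 + 4), and the last group was iPSCs, induced pluripotent stem cells. The last 3 groups were sorted for Oct4-GFP+, a green fluorescent reporter of Pou5f1. The number of animals or lines behind a group, the reprogramming factors and the additives of the protocol are not stated in the labels used here.

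Collagens are secreted proteins of 3 chains wound into a triple helix, and they make up much of the extracellular matrix. Fibrillar collagens assemble into the cross-striated fibrils of skin, bone, tendon and cartilage. Type IV collagens form the sheet-like network of basement membranes. The other collagens sit on fibril surfaces, form beaded filaments or short-chain networks, or span the cell membrane. Fibroblasts are the main producers of types I, III, V and VI.

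The stretches of DNA just before 4 collagen start sites are shown because regions over these sites moved in opposite directions between MEF and Stage 1 cells. They are RefSeq sequences of the assembly GRCm38.p6 (mm10), 5' to 3' on the strand of the gene, and all 4 genes lie on the plus strand. They are chr6:4505368-4505617 for Col1a2, chr1:45311288-45311537 for Col3a1, chr3:145292222-145292471 for Col24a1 and chr3:114030290-114030478 for Col11a1. Capitals mark matches to the 5 motifs named further on. The stretches of Col1a2, Col3a1 and Col24a1 end at the base before the start site, and that of Col11a1 ends 62 bases before the start site listed with it.
Col1a2: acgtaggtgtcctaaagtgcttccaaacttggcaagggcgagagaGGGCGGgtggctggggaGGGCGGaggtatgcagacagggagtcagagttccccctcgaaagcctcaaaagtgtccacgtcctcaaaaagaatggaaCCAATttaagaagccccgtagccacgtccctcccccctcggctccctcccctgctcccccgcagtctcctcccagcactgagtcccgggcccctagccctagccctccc
Col3a1: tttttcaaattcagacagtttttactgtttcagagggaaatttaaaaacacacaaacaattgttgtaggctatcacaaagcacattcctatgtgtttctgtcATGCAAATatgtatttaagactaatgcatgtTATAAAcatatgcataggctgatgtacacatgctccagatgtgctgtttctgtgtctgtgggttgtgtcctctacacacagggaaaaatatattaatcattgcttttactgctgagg
Col24a1: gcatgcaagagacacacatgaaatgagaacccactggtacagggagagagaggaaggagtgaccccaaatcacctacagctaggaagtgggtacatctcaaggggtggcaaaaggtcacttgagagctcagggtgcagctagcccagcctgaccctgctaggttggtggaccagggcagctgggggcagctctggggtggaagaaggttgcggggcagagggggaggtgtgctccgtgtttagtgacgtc
Col11a1: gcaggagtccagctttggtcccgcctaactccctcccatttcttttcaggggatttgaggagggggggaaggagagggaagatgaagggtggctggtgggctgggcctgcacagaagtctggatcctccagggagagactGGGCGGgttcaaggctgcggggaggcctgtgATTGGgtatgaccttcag

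The regions over the start sites of Col1a2 and Col3a1 lost reads after the MEF stage, and those of Col24a1 and Col11a1 gained them, relative to all regions. The stretches of Col1a2, whose region lost reads, and Col11a1, whose region gained them, hold the same kinds of motif. Col1a2 has 2 GC boxes (GGGCGG) and a CCAAT box. Col3a1 has a TATA box (TATAAA) and an octamer (ATTTGCAT, the site bound by Oct4, here as its reverse complement). Col11a1 has a GC box and a CCAAT box, and in the Col24a1 stretch these letters are not in the window.

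Each library held between 14310290 and 32229388 reads, of which 1034936 to 6261903 fell in the regions, a share from 4.49% in an iPSC library to 22.1% in a MEF library. Levels are given in CPM, the usual unit of counts relative to library size, with the reads in regions as that size, after TMM scaling, a method that sets most features equal between libraries. An expected background was computed for each gene from the density of reads outside all regions, over the summed length of its own regions. Because fewer reads fell in regions in the later groups, this background rises from MEF to iPSC on the CPM scale. When libraries were scaled instead to all their reads, the median over all genes of the log2 fold change moved by -0.96 from MEF to Stage 1, by -0.38 from Stage 1 to Stage 2, by -0.35 from Stage 2 to iPSC and by -1.69 from MEF to iPSC. Fold changes below are therefore relative to the typical gene. On the share of higher genes among those called, the 2 scalings gave 50.7% and 9.78% for Stage 1 against MEF, 52.2% and 4.89% for Stage 2 against Stage 1, 59.4% and 0% for iPSC against Stage 2, and 50.5% and 4.97% for iPSC against MEF.

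From MEF to Stage 1, 34 of the 44 collagen genes fell, 3 rose and 7 did not pass the test (edgeR quasi-likelihood test, adjusted p under 0.05 over the 17503 genes tested). Among all tested genes 32% fell and 32.9% rose. The median log2 fold change was -0.76 over the collagens and 0.00 over all genes, and with whole-library scaling it was -1.72 and -0.96. Of the fibrillar collagens 9 of 11 fell and 1 rose. All 6 type IV genes fell, and of the other collagens 19 of 27 fell and 2 rose. All 44 genes had passed the filter on low counts.

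**Figure D1:**
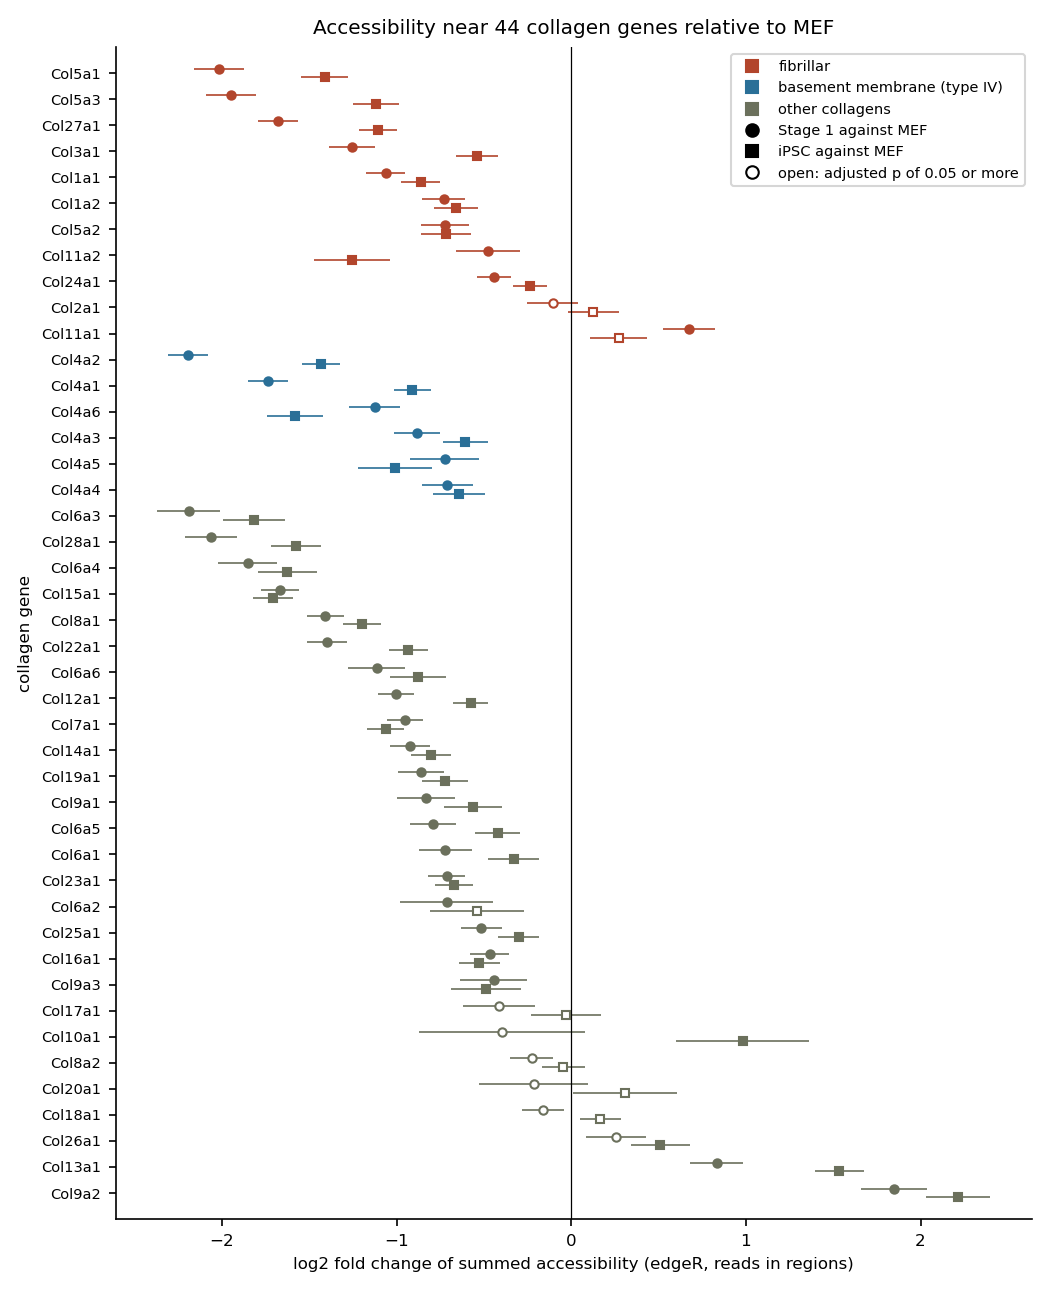
Log2 fold change of summed accessibility (x axis, reads in regions, edgeR) for each of the 44 collagen genes (y axis), with Stage 1 against MEF as circles and iPSC against MEF as squares; bars are 1 standard error, colours are the 3 classes and open symbols have an adjusted p of 0.05 or more. Most points lie left of 0, down to -2.19 for Col4a2 and Col6a3, and Col9a2 and Col13a1 lie right of 0 in both comparisons.

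Type I collagen, the main fibril protein of skin and bone, is built from the chains of Col1a1 and Col1a2. Summed accessibility of Col1a1 was 124, 130 and 117 CPM in the MEF libraries, 63.8, 55.0 and 59.3 CPM at Stage 1, 70.7, 69.4 and 81.4 CPM at Stage 2, and 61.8, 68.7 and 76.5 CPM in iPSC. For Col1a2 the values were 89.7, 81.8 and 83.8 CPM in MEF, 41.0, 57.7 and 55.6 CPM at Stage 1, 41.5, 39.3 and 40.7 CPM at Stage 2, and 52.8, 54.8 and 54.6 CPM in iPSC. For both chains every MEF library lay above every later library. The log2 fold change from MEF to Stage 1 was -1.06 ± 0.11 (SE) for Col1a1 and -0.73 ± 0.12 for Col1a2 (edgeR adjusted p = 2.26e-13 and 3.53e-07). The value of Col1a1 was -0.44 with only regions within 1 kb of a gene end.

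Col3a1, whose type III fibrils accompany type I in skin and vessels, measured 96.3, 93.5 and 84.9 CPM in MEF and 34.9, 46.7 and 35.6 CPM at Stage 1, without overlap. It fell by 1.26 ± 0.13 on the log2 scale. Type V collagen is known to set the diameter of type I fibrils, and its chain gene Col5a1 had the largest fall among the fibrillar genes. Its levels were 105, 104 and 110 CPM in MEF, 31.1, 20.2 and 26.2 CPM at Stage 1, 30.3, 33.8 and 38.6 CPM at Stage 2 and 45.2, 40.0 and 32.8 CPM in iPSC, and the log2 fold change to Stage 1 was -2.02 ± 0.14 (edgeR adjusted p = 2.65e-21). Col5a3 fell by 1.95 and Col5a2 by 0.72. The Stage 1 mean of Col5a1, 25.8 CPM, equalled its expected background of 25.2 CPM to within the spread of the libraries (SD 5.51, n = 3).

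The minor fibrillar types gave a wider range. Col27a1 fell by 1.68 ± 0.11 and Col11a2 by 0.48 ± 0.18, the latter resting on 1 region that 4 other genes share. Col2a1, the main fibril chain of cartilage, measured 47.2 ± 2.22 CPM in MEF and 43.0 ± 9.89 CPM at Stage 1 (SD, n = 3), with overlapping libraries and an adjusted p of 0.533 by edgeR. Col11a1, a chain of the thin cartilage fibrils, measured 49.5, 41.5 and 45.9 CPM in MEF and 60.8, 76.0 and 81.2 CPM at Stage 1. It rose by 0.67 ± 0.15 (edgeR adjusted p = 0.000106), but with whole-library scaling its log2 fold change was -0.29.

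Col4a1 and Col4a2 encode the chains of the type IV network found in almost all basement membranes, and they lie head to head on chromosome 8. Col4a2 measured 282, 292 and 291 CPM in MEF and 50.1, 85.2 and 57.5 CPM at Stage 1. Col4a1 measured 177, 181 and 195 CPM in MEF and 45.6, 62.3 and 58.1 CPM at Stage 1. The libraries of the 2 groups did not overlap for either gene, with log2 fold changes of -2.19 ± 0.11 and -1.74 ± 0.12 (edgeR adjusted p = 1.79e-26 and 1.98e-22). With only regions within 1 kb of a gene end both genes gave -0.65 and missed the threshold (edgeR adjusted p = 0.0510). The 2 genes share 2 of their regions, and their values within 1 kb are the same measurement.

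Col4a3, Col4a4 and Col4a5 encode chains of the network of the kidney filter, and Col4a6 is paired with Col4a5 on the X chromosome. They fell by 0.88, 0.71, 0.73 and 1.13 on the log2 scale. With only regions within 1 kb of a gene end Col4a3 was higher, at 1.64, Col4a4 gave 0.14 and Col4a5 gave -0.22 (edgeR adjusted p = 0.0201, 0.795 and 0.426). At Stage 1 the ratio of the observed to the expected background level had a median of 1.44 over the 6 type IV genes, against 6.20 in MEF. It was 1.02 for Col4a1, 0.96 for Col4a2 and 2.36 for Col4a3.

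Among the other collagens the 6 beaded-filament chains of type VI fell, with log2 fold changes from -2.19 for Col6a3 to -0.71 for Col6a2. The call of Col6a2 was lost with DESeq2 (adjusted p = 0.0678) and without Stage 1 replicate 2 (-0.55, edgeR adjusted p = 0.101). Col6a3 measured 71.5, 83.5 and 98.9 CPM in MEF and 9.88, 25.7 and 20 CPM at Stage 1, and the Stage 1 mean of 18.5 CPM was below the expected background of 22.4 CPM. Col6a4 fell by 1.85. Of the 9 collagens that attach to fibril surfaces (FACIT), 7 fell, among them Col12a1 (-1.0 ± 0.10), Col14a1 (-0.92 ± 0.11) and Col22a1 (-1.40 ± 0.12), which is known from muscle-tendon junctions. Col20a1 had 3 regions, none with enough reads for a test of its own, and its gene value overlapped between groups.

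Col28a1 fell by 2.06 ± 0.15, with 179, 122 and 122 CPM in MEF and 29.6, 32.1 and 39.4 CPM at Stage 1. Col15a1 and Col18a1 are both multiplexins of basement membrane zones, and they gave different values. Col15a1 fell by 1.67 ± 0.11, whereas Col18a1 gave -0.16 ± 0.12 with overlapping libraries (edgeR adjusted p = 0.229); the difference between the 2 genes was not tested. Of the short-chain collagens Col8a1 fell by 1.41, and Col8a2 and Col10a1 did not pass the test. Col7a1, the anchoring fibril protein beneath the epidermis, fell by 0.95, but each of its 10 regions is also linked to Uqcrc1, Ucn2 or Pfkfb4.

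The 2 collagens of this class that rose were Col9a2 and Col13a1. Col9a2, a chain of the type IX collagen that coats cartilage fibrils, measured 12, 9.58 and 9.39 CPM in MEF, 36.5, 36.6 and 40.6 CPM at Stage 1, 28.1, 24.6 and 32.3 CPM at Stage 2 and 45.2, 58.8 and 42.7 CPM in iPSC. All 9 later libraries were above all MEF libraries, and the log2 fold change to Stage 1 was 1.85 ± 0.19 (edgeR adjusted p = 5.55e-14). It was 1.12 when the 2 of its 4 regions that are also linked to Zmpste24 were left out. The partner chains Col9a1 and Col9a3 gave -0.83 and -0.45.

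Col13a1, a transmembrane collagen of the neuromuscular junction, measured 25.3, 24.6 and 27.1 CPM in MEF, 40.3, 49.5 and 46.8 CPM at Stage 1, 67.9, 71.9 and 80.6 CPM at Stage 2 and 70.1, 65.4 and 88.4 CPM in iPSC. The groups did not overlap between MEF and Stage 1 or between Stage 1 and Stage 2. The log2 fold change to Stage 1 was 0.83 ± 0.15 (edgeR adjusted p = 2.01e-06), and -0.12 with whole-library scaling. From regions within 1 kb of a gene end alone it was 0.16 (edgeR adjusted p = 0.670). Its ratio to the expected background was 2.68 in MEF, 2.39 at Stage 1, 2.88 at Stage 2 and 2.28 in iPSC. The other transmembrane collagens Col23a1 and Col25a1 fell by 0.71 and 0.51, and Col17a1 of the hemidesmosome did not pass the test.

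**Figure D2:**
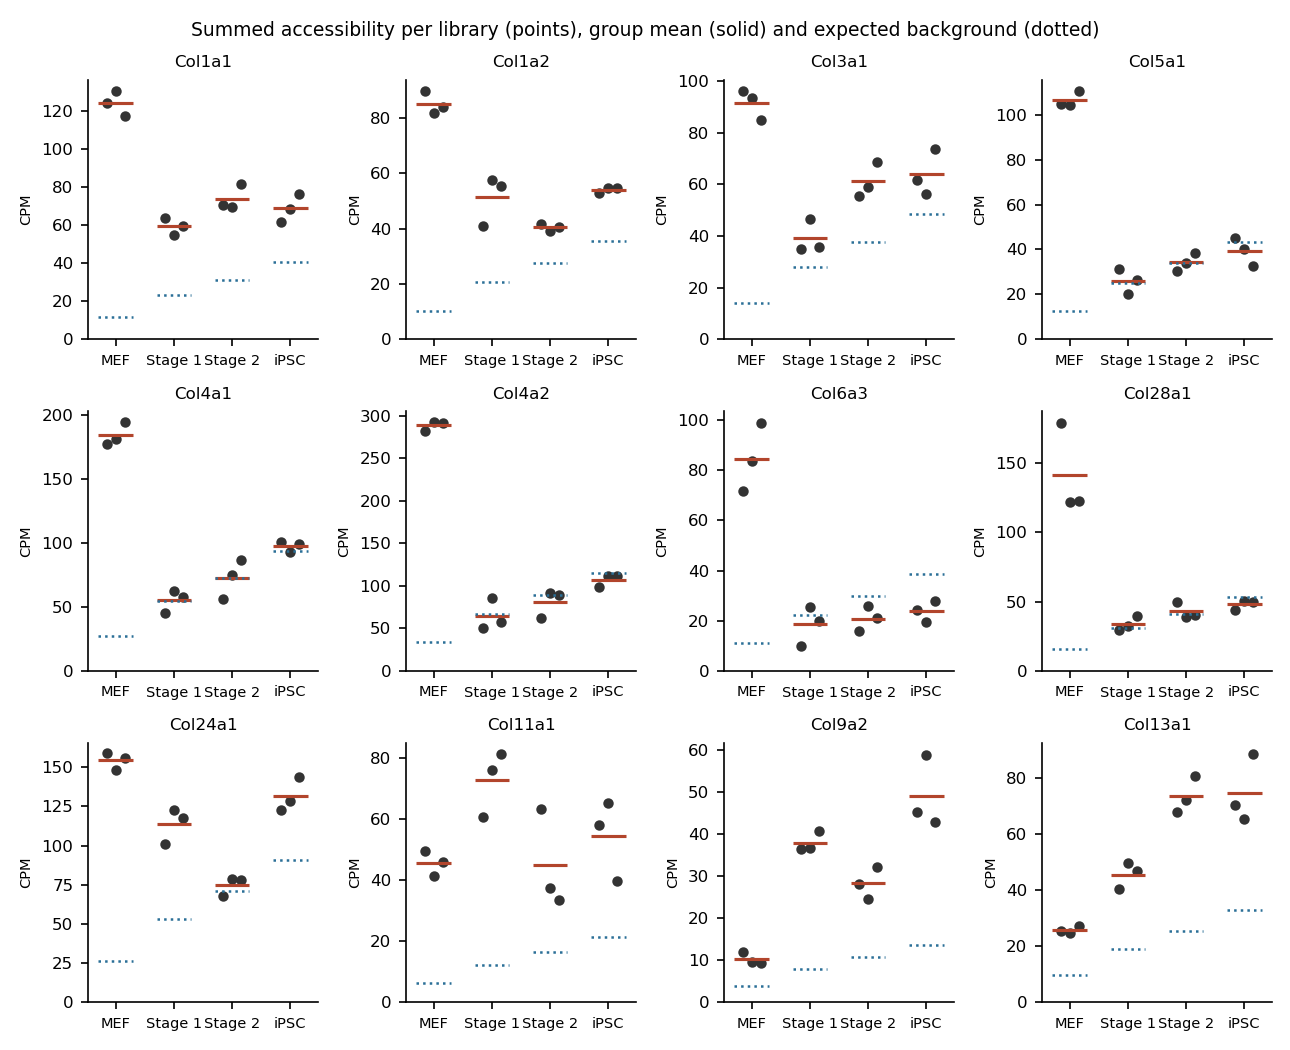
Summed accessibility of 12 collagen genes in CPM (y axis, own scale in each panel) in the 3 libraries of each group (points, x axis), with the group mean as a solid line and the expected background as a dotted line. MEF libraries stand above the later ones in the upper 2 rows, and the later means of Col5a1, Col4a1, Col4a2 and Col28a1 lie near the dotted line.

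Measured against the background, 44 of 44 collagens were above 2 times their expected level in MEF, 19 at Stage 1, 9 at Stage 2 and 6 in iPSC. The share of all 17503 tested genes above that mark was 94.9%, 87.2%, 79.6% and 68.0%. The median ratio over the collagens was 7.24, 1.78, 1.41 and 1.42 in the 4 groups, and 7.78, 4.10, 3.13 and 2.41 over all genes. The fibrillar medians were 7.31, 2.15, 1.47 and 1.45. In iPSC the mean of Col4a1 was 97.8 CPM against 93.8 CPM expected, and that of Col6a3 was 23.9 CPM against 38.5 CPM expected. At a ratio near 1 a level cannot be told from that of reads outside regions.

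Fibroblast marker genes moved with the collagens. Of 9 tested fibroblast markers 8 fell from MEF to Stage 1, beside 32% of all tested genes. The summed level of all 10 went from 747 to 804 CPM in MEF to 353 to 381 CPM at Stage 1. It was 395 to 422 CPM at Stage 2 and 463 to 510 CPM in iPSC. All 10 pluripotency markers rose to Stage 1, beside 32.9% of all tested genes. Their sum went from 256 to 273 CPM in MEF to 1033 to 1060 CPM, and Pou5f1 among them was used for the sort. No marker in any of the 8 lists that had a linked region was at 0 in a group. Fewer cells of a type and less open chromatin per cell cannot be told apart in bulk libraries, and the part of cell makeup in the collagen result was not tested.

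Single regions showed which stretches carried these sums. Of the 432 collagen-linked regions 218 had enough reads for a test, and 202 of the 214 others were in the MEF interval list alone. Of the tested regions 138 were lower and 44 higher at Stage 1 than in MEF (edgeR adjusted p under 0.05), beside 40.3% lower and 40.2% higher among all 71069 tested regions. By class the counts lower and higher were 38 and 10 of 59 for fibrillar genes, 26 and 2 of 32 for type IV genes, and 74 and 32 of 127 for the other collagens. The median log2 fold change was -1.48, -2.59 and -1.36 in these classes, and 0.03 over all regions. In 25 genes tested regions changed in both directions, in 11 only downward and in 5 only upward. Of the 34 genes that fell as a sum, 22 held at least 1 region that rose. Every counted region overlapped the interval list of at least 1 stage. The MEF list held 89.1% of the collagen regions and 74.8% of all regions. The direction of the counts here and of the gene sums is therefore not independent of how regions were chosen. The part of this choice was not tested.

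**Figure D3:**
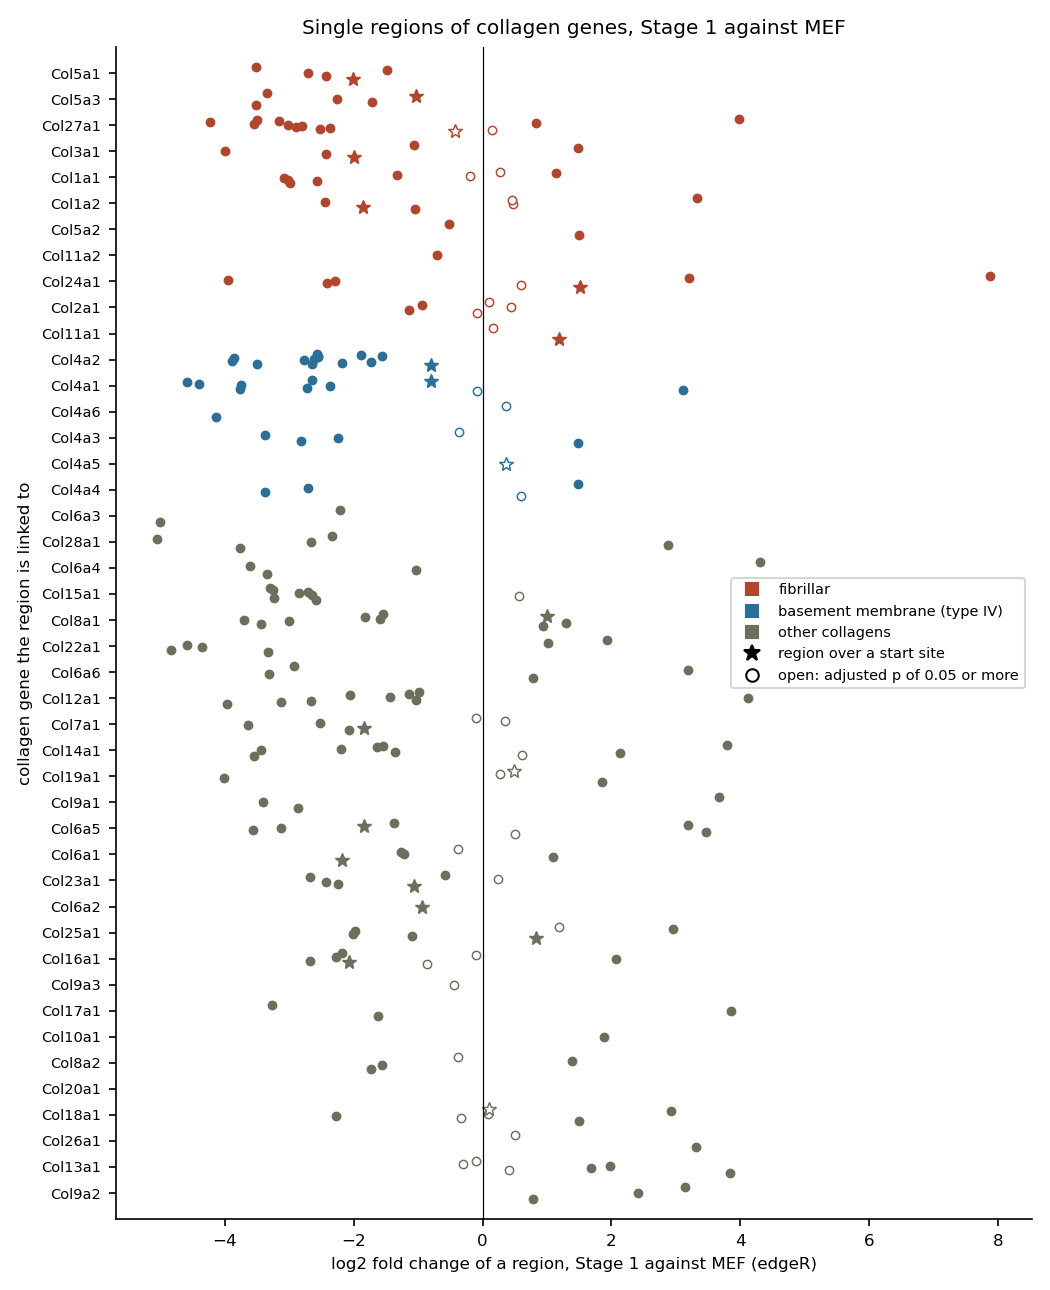
Log2 fold change from MEF to Stage 1 (x axis, edgeR) of each tested region, in rows by the collagen gene it is linked to (y axis), coloured by class; stars are regions over a start site and open symbols have an adjusted p of 0.05 or more. All 14 regions of Col4a2 lie left of 0, all 3 of Col9a2 lie right of it, and 1 region of Col24a1 stands at 7.88.

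At Col4a2 all 14 tested regions fell, and at Col4a1 8 of 10 did. At Col5a1 all 5 tested regions fell, from the start site to one about 50 kb inside the gene. Col1a2 had 3 tested regions that fell, and 1 that rose by 3.33 on the log2 scale, 44.8 kb past the start site and beyond the gene's end, with 12 reads over the MEF libraries, 44 at Stage 1, 39 at Stage 2 and 30 in iPSC. The largest falls were a region in Col28a1 (chr6:8171901-8172700), one in Col6a3 (chr1:90834601-90835300) and one in Col22a1 (chr15:71862801-71863700). The Col28a1 region held 310, 191 and 112 reads in MEF and 3, 1 and 2 at Stage 1. The Col6a3 region held 189, 185 and 110 reads in MEF and 0, 2 and 3 at Stage 1, and the Col22a1 region 328, 192 and 101 against 3, 2 and 2. After scaling, the Col28a1 region was 35.2 times lower at Stage 1 (95% counting interval 16.1 to 96.2). The log2 fold changes of the 3 regions were -5.05 ± 0.35, -5.01 ± 0.37 and -4.84 ± 0.35. Outside all regions the Stage 1 libraries held 5.82, 5.11 and 6.69 reads per kb. The Stage 1 counts of the 3 regions lay below that density over their lengths, so these fold sizes rest on a few reads under the background.

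Among the regions that rose, 1 inside Col24a1 stood apart (chr3:145443051-145443850, 150.6 kb past the start site). Its reads were 0, 0 and 1 in MEF, 40, 40 and 60 at Stage 1, 45, 33 and 25 at Stage 2 and 34, 38 and 39 in iPSC. Every later library exceeded every MEF library, and the ratio of scaled reads at Stage 1 to MEF was 407, with a 95% counting interval from 71.8 to 16180. Outside all regions the MEF libraries held 8.53, 10.4 and 8.87 reads per kb. The MEF counts of this region, which is shorter than 1 kb, lay below that density over its length. Why they did was not tested, and the size of the ratio rests on a count under the background. A second region of the gene, 149.8 kb past the start site, rose as well, whereas 3 others fell, by 2.30 to 3.95 on the log2 scale. As a sum Col24a1 fell from 159, 148 and 156 CPM in MEF to 101, 123 and 117 CPM at Stage 1 (-0.44 ± 0.10, edgeR adjusted p = 5.32e-05). With only regions within 1 kb of the gene's ends it rose, by 1.23. The next 2 rises were in Col6a4, with 1, 2 and 0 reads in MEF and 5, 6 and 14 at Stage 1, and in Col12a1, with 0, 3 and 3 reads in MEF and 8, 15 and 17 at Stage 1. Both genes fell as sums. The MEF counts of these 2 regions likewise lay below the density outside all regions over their lengths, so the sizes of their rises rest on a few reads under the background.

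Strand and start site were known for the genes with a RefSeq promoter entry, and 22 regions lay over a collagen start site. Of the 19 tested, 11 fell and 4 rose from MEF to Stage 1, with a median of -0.94. Away from a start site 98 of 153 tested regions were lower and 32 higher, with a median of -2.01. Among all tested regions 40.3% were lower and 40.2% higher. Shares for start-site regions of all genes are not given here, so whether this contrast is particular to collagens was not tested. The Col1a2 start region (chr6:4505101-4505900) held 203, 169 and 100 reads in MEF, 10, 10 and 25 at Stage 1, 10, 16 and 15 at Stage 2 and 22, 16 and 12 in iPSC. The Col3a1 start region (chr1:45311051-45311850) held 92, 69 and 40 reads in MEF and 7, 6 and 4 at Stage 1. They fell by 1.86 ± 0.23 and 2.00 ± 0.35 (edgeR adjusted p = 5.21e-12 and 3.27e-07), and the Col3a1 mean at Stage 1, 4.3 CPM, was near the expected 3.4 CPM. The start regions of Col6a1 (-2.18), Col16a1 (-2.08) and Col5a1 (-2.01) fell by similar amounts.

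The 4 start regions that rose belonged to Col24a1, Col11a1, Col8a1 and Col25a1, the last known as a collagen of neurons. The Col24a1 start region (chr3:145292251-145292900) held 27, 18 and 12 reads in MEF, 18, 17 and 21 at Stage 1, 14, 18 and 6 at Stage 2 and 28, 21 and 20 in iPSC, from libraries with 2933421 to 6261903 reads in regions in MEF and 1034936 to 1735012 later. Its mean was 4.7 CPM in MEF and 13.7 CPM at Stage 1, with a log2 fold change of 1.51 ± 0.31 (edgeR adjusted p = 7.45e-06). The Col11a1 start region (chr3:114030051-114030750) rose by 1.19 ± 0.20, from 17.8 CPM to 40.7 CPM. With whole-library scaling the 4 values stayed positive, at 0.78, 0.45, 0.27 and 0.11 in the order Col24a1, Col11a1, Col8a1 and Col25a1, with edgeR adjusted p of 0.0640, 0.191, 0.535 and 0.790.

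**Figure D4:**
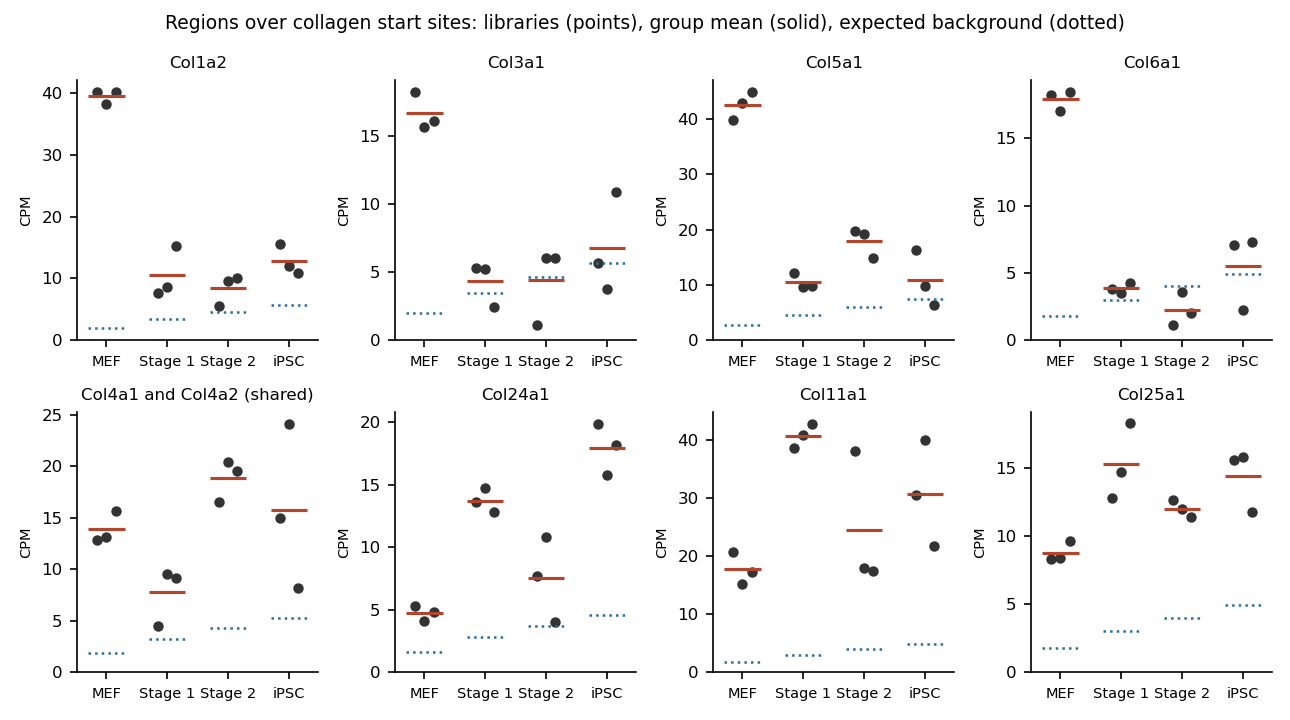
CPM (y axis, own scale in each panel) of the region over the start site of 8 collagen genes in the 3 libraries of each group (points, x axis), with the group mean as a solid line and the expected background as a dotted line; Col4a1 and Col4a2 share 1 region. The regions of Col1a2, Col3a1, Col5a1 and Col6a1 are highest in MEF, and those of Col24a1, Col11a1 and Col25a1 are lowest there.

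Col4a1 and Col4a2 share 1 start region (chr8:11312351-11313100), and its values are given on their own. It held 65, 58 and 39 reads in MEF, 6, 11 and 15 at Stage 1, 30, 34 and 29 at Stage 2 and 21, 32 and 9 in iPSC. Its means were 13.9, 7.7, 18.8 and 15.7 CPM in the 4 groups. It fell by 0.81 ± 0.30 to Stage 1, rose by 1.26 ± 0.32 to Stage 2 (edgeR adjusted p = 0.0114 and 0.00348), and in iPSC against MEF gave 0.23 ± 0.26 (adjusted p = 0.400). Without Stage 1 replicate 1 the log2 fold changes were -0.39 (edgeR adjusted p = 0.276) and 0.94 (adjusted p = 0.0788). With no filter on low counts the first was -0.30 (edgeR adjusted p = 0.389), and with whole-library scaling the second was 0.88 (adjusted p = 0.181).

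Motifs were counted on both strands in the 300 bases around RefSeq start sites, of which 250 precede the start. The 38 windows of the 35 collagen genes found there were set beside all 32851 windows. The AP-1 motif TGANTCA, bound by Fos and Jun factors that are active in fibroblasts, was in 1 collagen window (2.63%, all windows 7.81%), that of Col6a1. The octamer ATTTGCAT was in 2 (5.26%, all 1.74%), Col3a1 and Col25a1. TATAAA was in 5 (13.2%, all 13.6%), CCAAT in 13 (34.2%, all 37.4%) and GGGCGG in 23 (60.5%, all 35.7%). None of the 5 motifs contains another, and a match is a description of the sequence only.

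From Stage 1 to Stage 2, 3 collagen genes rose and 2 fell (edgeR adjusted p under 0.05), beside 8.24% and 7.56% of all tested genes. The risers were Col3a1 (0.66 ± 0.15), Col13a1 (0.69 ± 0.15) and Col10a1 (1.65 ± 0.46), and the fallers were Col24a1 (-0.61 ± 0.12) and Col11a1 (-0.68 ± 0.17). No type IV gene passed the test, with 0.38 ± 0.14 for Col4a1 and 0.35 ± 0.14 for Col4a2 (adjusted p = 0.0531 and 0.0851), and neither did Col1a1 (0.30 ± 0.13) or Col1a2 (-0.34 ± 0.15). With only regions within 1 kb of a gene end Col4a1 and Col4a2 rest on the same shared reads, and that single measurement was higher, at 1.31 (edgeR adjusted p = 0.00184). Without Stage 1 replicate 2 or Stage 2 replicate 1 both passed (Col4a1 0.46 and 0.55, Col4a2 0.57 and 0.52), and Col4a1 also did without MEF replicate 1 (0.38). Without Stage 1 replicate 1 Col1a2 passed as well (-0.48). Over the 44 genes 9 rises and 8 falls had an unadjusted p under 0.05, and DESeq2 gave 3 and 2 calls.

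Col3a1 went from 34.9, 46.7 and 35.6 CPM to 55.6, 59.0 and 68.7 CPM, without overlap. The rise lay outside the gene: with regions of the span alone it was 0.06 (edgeR adjusted p = 0.909). A flank region 47.5 kb past its start (chr1:45359051-45360200) carried 6, 12 and 13 reads at Stage 1 and 27, 36 and 31 at Stage 2. Col13a1 gained at 2 regions of its span, one of which (chr10:61906051-61906650) went from 4, 4 and 7 reads to 22, 15 and 19. Col10a1, a collagen of mature growth-plate cartilage, rests on 2 regions outside its span that are also linked to Nt5dc1, and without Stage 1 replicate 1 its adjusted p was 0.0519.

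Col24a1 went from 101, 123 and 117 CPM to 67.9, 78.7 and 77.8 CPM, so the libraries did not overlap. Col11a1 went from 60.8, 76.0 and 81.2 CPM to 63.4, 37.5 and 33.7 CPM; Stage 2 replicate 1 lay within the Stage 1 range, and without Stage 1 replicate 3 the adjusted p was 0.0628. Of the single collagen regions 6 rose and 8 fell, beside 6.14% and 4.3% of all regions. Without Stage 1 replicate 3 the counts were 3 and 3, without Stage 1 replicate 1 the rises were 3, and the falls were 4 without Stage 2 replicate 3 and 14 without MEF replicate 1.

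From Stage 2 to iPSC, 7 collagen genes rose and none fell by edgeR, beside 5.59% and 3.82% of all tested genes; at an unadjusted p under 0.05 there were 13 rises and 1 fall. DESeq2 called 2 rises and 0 falls. The rises were small: Col24a1 0.81 ± 0.12, Col9a2 0.80 ± 0.18, Col25a1 0.50 ± 0.14, Col19a1 0.50 ± 0.17, Col4a3 0.49 ± 0.16, Col4a1 0.44 ± 0.13 and Col4a2 0.41 ± 0.13 on the log2 scale. Col1a1 (-0.10 ± 0.13), Col1a2 (0.41 ± 0.16) and Col3a1 (0.06 ± 0.14) did not pass the test. With whole-library scaling no collagen passed it.

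Col24a1 had 67.9, 78.7 and 77.8 CPM at Stage 2 and 123, 128 and 144 CPM in iPSC, and every fit without 1 library kept its edgeR adjusted p at or below 0.000418. Its expected background rose as well, from 70.9 to 91.1 CPM, and the ratio from 1.06 to 1.45. Col4a1 went from 56.1, 75.0 and 87.0 CPM to 101, 93.2 and 99.3 CPM, while its background went from 73.0 to 93.8 CPM and its ratio from 1.00 to 1.04. Col4a2 had ratios of 0.90 and 0.93. The part of the background in these rises was not tested. The calls depended on single libraries, since leaving out Stage 2 replicate 1 left 3 rises, iPSC replicate 1 left 2, iPSC replicate 2 left 3 and iPSC replicate 3 left 2.

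Of single collagen regions 1 rose and 0 fell (edgeR), beside 0.545% and 1.06% of all regions, and at an unadjusted p under 0.05 there were 21 and 9. DESeq2 called 0 in either direction. The region was that over the Col24a1 start site, with 14, 18 and 6 reads at Stage 2 and 28, 21 and 20 in iPSC (1.23 ± 0.32, edgeR adjusted p = 0.0235). Left-out single libraries gave adjusted p-values above the threshold for it in 5 fits, from 0.0634 without iPSC replicate 2 to 0.166 without Stage 2 replicate 3. The rises were 3 without MEF replicate 1, 2 without MEF replicate 3 and 0 without Stage 2 replicate 1 or any of the iPSC replicates.

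Between MEF and iPSC, the end points of the series, 33 collagens were lower and 4 higher (edgeR adjusted p under 0.05), beside 32.2% and 32.9% of all tested genes. This comparison shares its MEF libraries with Stage 1 against MEF. The median was -0.65 over the collagens, and -2.34 with whole-library scaling against -1.70 over all genes. All 6 type IV genes fell, from -0.61 for Col4a3 to -1.58 for Col4a6. Of the fibrillar genes 9 fell and none rose, and of the others 18 fell and 4 rose. With only regions within 1 kb of a gene end 9 of 27 tested collagens were lower and 9 higher. The shares over all genes under that link are not given here.

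Log2 fold changes of iPSC against MEF were -0.86 for Col1a1, -0.66 for Col1a2, -0.54 for Col3a1, -1.41 for Col5a1, -0.91 for Col4a1 and -1.43 for Col4a2. Col6a3 (-1.82 ± 0.18) and Col15a1 (-1.71 ± 0.11) had the largest falls among all 44, and Col6a4 (-1.62), Col11a2 (-1.26), Col5a3 (-1.12) and Col4a5 (-1.01) followed in their classes. Col24a1 was lower by 0.23 ± 0.10 (edgeR adjusted p = 0.0285), and without MEF replicate 1, iPSC replicate 1 or iPSC replicate 2 it missed the threshold (adjusted p = 0.0539, 0.109 and 0.0666). Its start region was higher by 1.90 ± 0.29.

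The genes higher in iPSC than in MEF were Col9a2 (2.22 ± 0.18), Col13a1 (1.53 ± 0.14), Col10a1 (0.98 ± 0.38) and Col26a1 (0.51 ± 0.17). With whole-library scaling Col9a2 gave 0.52 and the other 3 changed sign, at -0.16, -0.70 and -1.17. Col10a1 had 4.13, 3.13 and 5.06 CPM in MEF and 5.28, 10.6 and 7.95 CPM in iPSC. Its adjusted p was 0.0799 without MEF replicate 2, 0.219 without iPSC replicate 2 and 0.0519 without iPSC replicate 3. Col26a1 missed the threshold without iPSC replicate 1 (adjusted p = 0.0737). Of the single collagen regions 132 were lower and 45 higher, beside 40.8% and 40.8% of all regions. Over a start site 8 of 19 tested regions were lower and 5 higher, with a median of -0.15. Away from a start site 95 of 153 were lower and 32 higher, with a median of -1.61. The like contrast over all genes is not given here.

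The authors' interval lists, 1 per stage with no score, were compared with the counted regions by any overlap. Of the 432 collagen regions 336 (77.8%) were in the MEF list alone, beside 56.3% of all regions. The share was 76.4% for fibrillar, 88.7% for type IV and 75.3% for the other collagens. In all, 385 collagen regions were listed in MEF, 74 at Stage 1, 62 at Stage 2 and 42 in iPSC, and 44, 38, 38 and 31 of the genes had a listed region. The shares of all 115000 regions listed were 74.8%, 31.6%, 32.2% and 24.4%. Regions in later lists only made up 10.9% of the fibrillar, 4.23% of the type IV and 12.7% of the other collagen regions, beside 25.2% of all regions. MEF libraries had the most reads in regions, and the part of depth in the number of listed intervals was not tested.

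**Figure D5:**
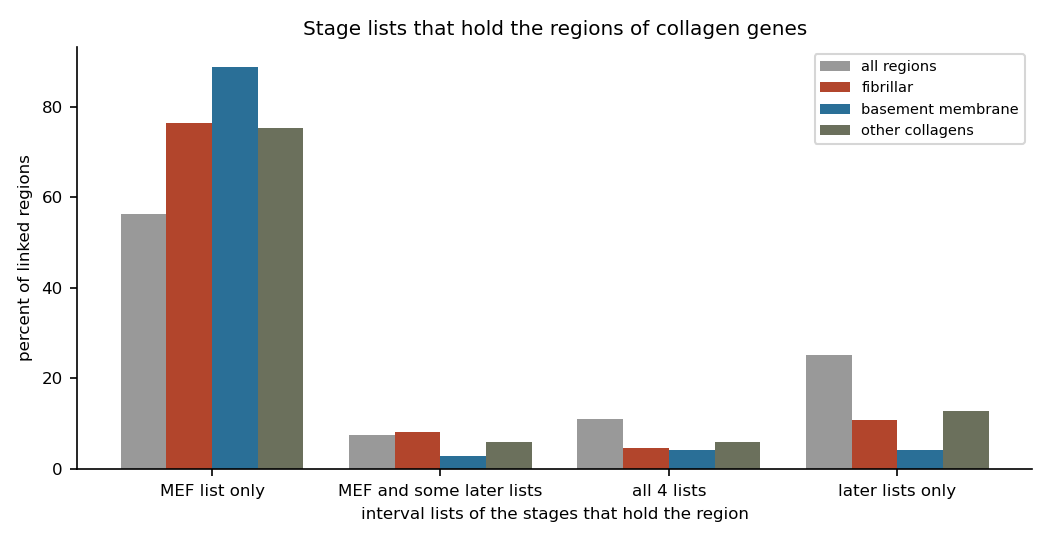
Percent of counted regions (y axis) by the stage interval lists that hold them (x axis), for all 115000 regions and for those linked to fibrillar, basement membrane and other collagens. The MEF list alone holds 88.7% of type IV regions and 56.3% of all regions.

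Genes that act on collagen were read from the same fit, in 7 lists of 77 genes. From MEF to Stage 1, 47 of the 73 tested genes fell (64.4%) and 13 rose (17.8%), beside 32% and 32.9% of all genes. Of the 20 genes for synthesis inside the cell, 9 fell and 6 rose. P4ha3, a subunit of the prolyl hydroxylase that stabilises the helix, fell by 2.12 ± 0.13, and Tmem38b, an ion channel of the endoplasmic reticulum, rose by 2.10 ± 0.16. Of the 8 genes for procollagen processing 7 fell and none rose, led by Tll1, a protease of the Bmp1 family (-1.63 ± 0.11). Of the 5 lysyl oxidases, which cross-link fibrils, 4 fell and Loxl4 rose (1.03 ± 0.15). Lox itself fell by 2.63 ± 0.17, from 102 ± 14.4 CPM to 16.8 ± 2.6 CPM (SD, n = 3; edgeR adjusted p = 1.86e-23).

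Of 11 tested fibril-associated proteoglycans and matricellular proteins 8 fell, and Bgn (biglycan) fell by 2.74 ± 0.33. Of 9 tested collagen receptors 5 fell, among them the integrin chain Itga11 (-1.20 ± 0.15), and 2 rose, with Lair1, an inhibitory receptor of immune cells, at 2.31 ± 0.38. Of 5 tested collagen-degrading enzymes 3 fell, with Mmp8 at -2.10 ± 0.45, and Mmp9 rose by 0.73 ± 0.18. Of 15 other basement membrane components 11 fell and 3 rose. Pxdn, the peroxidase that forms the sulfilimine bonds of the type IV network, fell by 2.98 ± 0.16, and the laminin chain Lama5 rose by 0.48 ± 0.10. With whole-library scaling Mmp9 and Lama5 changed sign, at -0.21 and -0.46, and Loxl4 stood at 0.08. Kera, Gp6, Mmp1a and Mmp13 had too few reads or no region for a test.

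From Stage 1 to Stage 2, 12 of the 73 tested genes rose (16.4%, all genes 8.24%) and 4 fell (5.48%, all genes 7.56%). Pxdn (0.81 ± 0.22), Ddr1 (0.70 ± 0.14), a collagen receptor kinase, P4ha2 (0.65 ± 0.13) and Fn1 (0.47 ± 0.11) were among the risers. P4hb (-0.64 ± 0.13), which encodes protein disulfide isomerase, Loxl4 (-0.82 ± 0.16) and the integrin chain Itga1 (-0.58 ± 0.12) were among the fallers. From Stage 2 to iPSC 9 rose (12.3%, all genes 5.59%) and 1 fell (1.37%, all genes 3.82%). The endocytic collagen receptor Mrc2 rose by 0.68 ± 0.12 and Lama2 by 0.55 ± 0.13, and Agrn fell by 0.42. In iPSC against MEF Lox (-1.73 ± 0.15), Pxdn (-1.84 ± 0.14) and Bgn (-2.67 ± 0.34) were lower, and Tmem38b (2.48 ± 0.16) and Lair1 (2.29 ± 0.40) were higher. Of the 73 genes 11 were higher in iPSC (15.1%) and 42 lower (57.5%), beside 32.9% and 32.2% of all genes. By list, in the order above, the counts higher and lower were 6 and 11, 0 and 5, 0 and 4, 1 and 7, 2 and 5, 1 and 3, and 1 and 7.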

How the data were processed

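The authors deposited read counts per region for each of 12 ATAC-seq libraries, raw and unnormalized, and interval lists per stage. The build mm10, HTSeq 0.5.4p3, DESeq2 1.12.4, SAMtools 0.1.19, Picard 2.6.0 and Bowtie2 2.2.6 are named, per the submitters' processing notes, with no role or order. How peaks were called, duplicates treated and read ends shifted is not given in the sources used here. Reads in no region or in several stayed out of library sizes and tests, and ambiguous reads were 0.0311% to 0.230% of a library.

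Groups and replicate numbers came from the labels. Nothing says whether replicates were separate cultures or animals, so the p-values cover only the variation among these libraries, which may be technical. Regions were linked to genes of GRCm38.p6 (RefSeq). Counts per region and per gene were fitted with edgeR 4.0.16 (R 4.3.3) in 1 model of 4 groups: TMM, filterByExpr (minimum count 10, total 15), robust two-sided quasi-likelihood tests, Benjamini-Hochberg adjustment over all features, called under 0.05. The procedure was tested on simulated data in which a small set of genes rose or fell at Stage 1 only. The share of reads in regions was not shifted there, so that test does not bear on the choice between TMM and whole-library scaling. Genes could share a region, and a region counted toward each gene. Intervals of ratios are exact and cover counting error only.

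Members, classes, lists and rules were chosen with earlier results of these data known. Named in every comparison were Col1a1, Col1a2, Col3a1, Col4a1, Col4a2 and Col24a1, with the 3 largest called rises and falls per class without overlap, 3 regions per direction whose mean log2 CPM reached 2, and 1 pathway gene per list and direction. The other collagens, start-site regions and the Col1a2 flank region were added after their values were seen. Alternatives were DESeq2 1.42.0, whole-library scaling, no filter, a replicate block, each library left out, other links between regions and genes, and a list overlap of at least 50%.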

Additional observations from a re-analysis of the deposited data

How the results depend on the processing

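With whole-library scaling the collagens called higher were 1 at Stage 1 against MEF and 0 in each later comparison (Stage 2 against Stage 1, then iPSC against Stage 2, then against MEF). The collagen regions called higher were then 25, 0, 0 and 24 in these 4 comparisons, and 14 fell from Stage 1 to Stage 2. Other collagen pathway genes called higher were then 2, 0, 0 and 1, and those lower were 0 in iPSC against Stage 2 and 70 in iPSC against MEF. The log2 fold change changed sign under this scaling in 3, 17, 22 and 7 of the 44 collagens in the 4 comparisons, of which 2, 0, 0 and 3 had been called. Among the genes named for the comparison in question these were -0.29 for Col11a1 and -0.12 for Col13a1 at Stage 1 against MEF, -0.080 for Col1a1, -0.013 for Col4a1 and -0.059 for Col4a2 at Stage 2 against Stage 1, -0.29 for Col3a1 at iPSC against Stage 2, and -0.16 for Col13a1, -0.70 for Col10a1 and -1.17 for Col26a1 at iPSC against MEF.

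With only regions within 1 kb of a gene end, 27 collagens were tested. Of these, 5 rose and 11 fell to Stage 1, 1 rose from Stage 2 to iPSC, and 9 rose and 9 fell from MEF to iPSC. With all linked regions 32.9% of all genes rose and 32% fell to Stage 1, and 32.9% rose and 32.2% fell from MEF to iPSC. The shares over all genes under the narrower link are not given here. Among the named genes signs turned to Stage 1 for Col24a1 (1.23), Col4a3 (1.64), Col4a4 (0.14) and Col18a1 (0.26). From Stage 2 to iPSC they turned for Col4a1 and Col4a2 (both -0.12). From MEF to iPSC they turned for Col4a1 and Col4a2 (both 0.53), Col24a1 (1.53) and Col5a3 (0.073). The values of Col4a1 and Col4a2 are the same measurement of shared reads. Other values within 1 kb moved by over 1.5 times to Stage 1 without a change of sign or call. These were Col1a1 (-0.44), Col1a2 (-1.20), Col11a1 (1.34), Col5a3 (-0.88), Col9a2 (3.30), Col7a1 (-1.69), Col6a1 (-2.03) and Col8a1 (-0.69). Col3a1 gave -1.85, a smaller move. With span regions only such moves were seen for Col1a1 (-0.58), Col1a2 (-1.25), Col4a3 (-1.66), Col4a4 (-1.19), Col4a6 (-2.06), Col7a1 (-2.21) and Col6a1 (-1.92). Calls were also lost within 1 kb for Col13a1 (0.78, edgeR adjusted p = 0.0877) and Col3a1 (0.075) from Stage 1 to Stage 2. The same held for Col9a2 (0.28), Col4a3 (1.14), Col25a1 (0.37) and Col19a1 (0.83) from Stage 2 to iPSC, and for Col4a5 from MEF to iPSC (-0.37). From Stage 2 to iPSC 4 collagens rose with span regions only and 4 with regions linked to 1 gene, where Col3a1 gave -0.035. DESeq2 gave 2 rises there, 3 regions higher and 3 lower from Stage 1 to Stage 2, and 0 higher from Stage 2 to iPSC. Without a filter 76 regions rose and 226 fell to Stage 1, and 68 were higher in iPSC than in MEF, of 432 tested. At a 50% overlap 342 collagen regions were in the MEF list alone.

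Leaving out each library in turn gave, for collagens higher, 3 to 4 at Stage 1 against MEF, 3 to 6 at Stage 2 against Stage 1, 2 to 7 at iPSC against Stage 2 and 3 to 4 at iPSC against MEF, and for those lower 32 to 34, 1 to 3, 0 and 29 to 33. For regions higher it gave 43 to 57, 3 to 8, 0 to 3 and 40 to 51, and for those lower 137 to 166, 3 to 14, 0 and 133 to 160. Col3a1 at iPSC against Stage 2 ranged from -0.054 to 0.147. The collagens called higher at Stage 2 against Stage 1 were 5 without MEF replicate 1 or Stage 1 replicate 2 and 6 without Stage 2 replicate 1.

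No pairing by replicate number was seen, though with 3 libraries per group this check cannot exclude it. Same-numbered libraries had correlations of their deviations from -0.10 to 0.11 over 18 pairs. Libraries of other numbers had correlations from -0.13 to 0.14 over 36 pairs, and 6 of 12 libraries were closest to their own number. With a replicate block the 16 counts stayed within 1.5 times, with 34 lower and 3 higher at Stage 1 against MEF. Among the named genes the block changed the calls of Col4a1 at Stage 2 against Stage 1 (0.39, edgeR adjusted p = 0.0423) and of Col19a1 at iPSC against Stage 2 (0.50, adjusted p = 0.0521). Where the cause of a change is not in the alternative's own construction it was not tested. Precision is limited by 3 libraries per group and by the low share of reads in regions after MEF.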

Other observations

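Some collagen regions rose to Stage 1 although the gene did not rise as a sum. A region of Col14a1 (chr15:55485101-55485500) held 6 reads over the 3 MEF libraries and 32 over the Stage 1 libraries, and a flank region linked to both Col27a1 and Orm1 (chr4:63342451-63342950) held 7 and 42. A region of Col9a1 (chr1:24245651-24246150) held 8 and 38 reads, and a region before the start of Col17a1 (chr19:47696351-47696850), the hemidesmosome collagen, held 8 and 43. In iPSC these 4 regions held 20, 20, 25 and 36 reads. They were chosen after their values were seen, for their log2 fold changes (3.79, 3.98, 3.68 and 3.85). Outside all regions the MEF libraries held 8.53, 10.4 and 8.87 reads per kb. The MEF counts of these regions lay below that density over their lengths, so their fold sizes rest on a few reads under the background.

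Markers of other cell types were read from the same fit. Among all tested genes 32.9% rose and 32% fell from MEF to Stage 1. A count near these shares in so small a list says little about a cell type. From MEF to Stage 1, 5 of 8 cartilage markers rose and 1 fell, beside the cartilage collagens Col11a1 and Col9a2, which rose, Col9a1, Col9a3 and Col11a2, which fell, and Col2a1 and Col10a1, at -0.11 and -0.40, which did not pass the test. The summed level of the cartilage list ranged from 564 to 576 CPM in MEF, 544 to 682 CPM at Stage 1, 638 to 647 CPM at Stage 2 and 727 to 771 CPM in iPSC, and with whole-library scaling 0 rose and 2 fell. Of 6 endothelial markers 4 fell and 0 rose. Of 5 tested keratinocyte markers 1 rose and 2 fell, of 5 blood markers 3 rose and 1 fell, of 4 muscle markers 2 rose and 1 fell, and of 6 primitive endoderm markers 1 rose and 2 fell. Their part in the collagen values was not tested.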
